A study of Mus musculus with 12 samples.

Results

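The vacuolar proton pump (V-ATPase) moves protons into lysosomes, endosomes and other compartments at the cost of ATP. Its membrane sector, V0, carries the protons, and its cytosolic sector, V1, splits ATP and drives the rotation that couples both. The pump keeps lysosomes acidic and serves as part of the platform on which mTORC1 senses nutrients, and many of its subunit genes are known targets of the lysosomal transcription factor TFEB. A list of 10 mouse genes was followed: Atp6v0d1, Atp6v0a1, Atp6v0b, Atp6v0c and Atp6v0e of V0, Atp6v1a, Atp6v1b2, Atp6v1d and Atp6v1h of V1, and the accessory gene Atp6ap1. They were chosen by name, as Entrez rows with these symbols, with earlier results of these data known. All 10 were found among the 24454 gene IDs of the deposited table, of which 12502 were tested. Atp6v0c did not reach the minimum of 1 CPM (reads per 1000000 reads of a library) in 2 libraries, so 9 of the 10 were tested. Each of these 9 was above 25 CPM in every library, so none of them entered the test through a single group.

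RNA was sequenced from 3 mesenchymal mouse breast cancer lines, PyMT-1099 LT and Py2T LT, which the labels assign to the MMTV-PyMT strain, and MT∆Ecad, assigned to MMTV-Neu. Each line received siRNA against Nrf2 (siNrf2) or a control siRNA (siCtl) for 48 hours. Each of the 6 groups holds 2 biological replicates, which makes 12 libraries, and MMTV-Neu is represented by a single line. Nrf2, encoded by Nfe2l2, is known for switching on genes of the antioxidant response. Libraries held 27088970 to 37070635 reads. Nfe2l2 was lower with siNrf2 than with siCtl in every line. Its log2 fold change was −1.97 in MT∆Ecad (limma adjusted p 9.67e-05), −1.91 for PyMT-1099 LT (0.000691) and −1.86 for Py2T LT (0.000897). Of 10 mesenchymal marker genes, 8 averaged at least 1 CPM in both groups of PyMT-1099 LT (Snai2 and Twist1 were at 0) and all 10 did in the other lines. Of 10 epithelial marker genes, 2 did so in MT∆Ecad, 5 for PyMT-1099 LT and 8 for Py2T LT. MT∆Ecad cells are E-cadherin-deleted, as the name says, and Cdh1, which encodes E-cadherin, was under 1 CPM in them.

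RefSeq promoter windows of GRCm38.p6, from 250 bases before to 50 bases after an annotated start, were given for 8 of the 10 genes, the others being Atp6v1b2 and Atp6v1h. The letters CACGTG, the E-box core that TFEB and its relatives recognise, stood in 4 of these 8 windows. Of the windows of all genes, 7.15% held CACGTG, and of those of tested genes 9.93% did. The longer GTCACGTG, which contains CACGTG and is part of the CLEAR element of lysosomal genes, stood in Atp6v0d1 and Atp6v0b, against 2.25% of all windows and 4.07% of those of tested genes. The windows below are shown because they hold these letters, in capitals for CACGTG, and read 5′ to 3′ on the gene's strand. They are the whole window of Atp6v0d1 (chr8:105566015-105566314, minus strand), and parts of those of Atp6v0b (chr4:117887322-117887385, minus), Atp6v0e (chr17:26676379-26676424, plus) and Atp6v1a (chr16:44139365-44139410, minus).
Atp6v0d1: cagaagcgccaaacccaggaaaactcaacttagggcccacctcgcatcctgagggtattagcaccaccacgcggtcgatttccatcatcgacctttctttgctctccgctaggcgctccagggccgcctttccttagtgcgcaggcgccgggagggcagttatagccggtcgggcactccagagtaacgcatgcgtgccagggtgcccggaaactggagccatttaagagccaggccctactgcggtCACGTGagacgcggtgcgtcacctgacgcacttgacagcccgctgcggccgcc
Atp6v0b: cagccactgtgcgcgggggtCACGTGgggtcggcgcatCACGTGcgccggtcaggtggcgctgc
Atp6v0e: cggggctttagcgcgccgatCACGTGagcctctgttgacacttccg
Atp6v1a: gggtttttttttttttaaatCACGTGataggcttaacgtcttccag
The E-box of Atp6v0d1 lies at chr8:105566062-105566067, and Atp6v0b carries 2 of them within its window. For Atp6v0e and Atp6v1a the annotated start used and the stretch shown lie inside the span that GENCODE M21 gives the gene. That span begins at chr17:26663231 for Atp6v0e and, on the minus strand, at chr16:44139705 for Atp6v1a. Which start these cells use was not measured. A match is only a run of letters, and binding was not measured here.

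The core of the antioxidant response element, the sequence bound by Nrf2, was searched on both strands as TGACNNNGC. It stood in 2 of the 8 windows, those of Atp6v0a1 and Atp6v1a, against 12.4% of all windows and 14.2% of those of tested genes. Atp6v0a1 held it in a pair of adjacent copies on the opposite strand, in capitals here (chr11:101010158-101010212, plus strand, also inside the GENCODE span of the gene).
Atp6v0a1: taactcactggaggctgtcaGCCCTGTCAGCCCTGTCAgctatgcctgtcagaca
The windows of Atp6v0c, Atp6v1d and Atp6ap1 held neither CACGTG nor TGACNNNGC.

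All 9 tested pump genes had a positive log2 fold change, siNrf2 minus siCtl, in each of the 3 lines, on the scale of log2(CPM + 1). The only sign to turn when single libraries were left out was that of Atp6v1h in MT∆Ecad, at −0.02 without siNrf2 replicate 1. In MT∆Ecad, 5 of the 9 rose past the threshold (limma, Benjamini-Hochberg adjusted p under 0.05 over 12502 genes), where 8.89% of all tested genes rose. The same test called 0 of 9 in either PyMT line, PyMT-1099 LT and Py2T LT, where 0.336% and 0.056% of all genes rose. At an unadjusted p under 0.05, 4 of 9 passed in PyMT-1099 LT and Py2T LT had 1 of 9, against 10.2% and 5.39% of all genes. With the replicate number as a block, which pairs the libraries of a line, 4 of 9 were called in PyMT-1099 LT (5.05% of all genes rose), 1 of 9 in Py2T LT (0.344%) and 7 of 9 in MT∆Ecad (21.4%). For PyMT-1099 LT DESeq2 called 1 of 9, with 86 genes called in all, and edgeR called 0 of 9. For Py2T LT both called 0.

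In PyMT-1099 LT both siNrf2 libraries lay above both siCtl libraries for 8 of the 9 genes, against 20.0% of all tested genes. This held for 5 of 9 in Py2T LT, against 7.63%, and for 7 of 9 in MT∆Ecad, against 32.5%. None of these 9 genes had both siNrf2 libraries below both siCtl libraries in any line. Of all tested genes, 17.1% did in PyMT-1099 LT, 15.9% in the Py2T LT libraries and 32.8% in MT∆Ecad. Among 10 further tested pump genes, 1 did in Py2T LT (Atp6v0e2, with 2 the other way). In MT∆Ecad 1 did (Atp6ap2, with 4 the other way). The median log2 fold change of the 9 genes was 0.33 in MT∆Ecad, 0.23 for PyMT-1099 LT and 0.18 for Py2T LT, and that of all tested genes lay between −0.02 and 0.00.

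**Figure D1:**
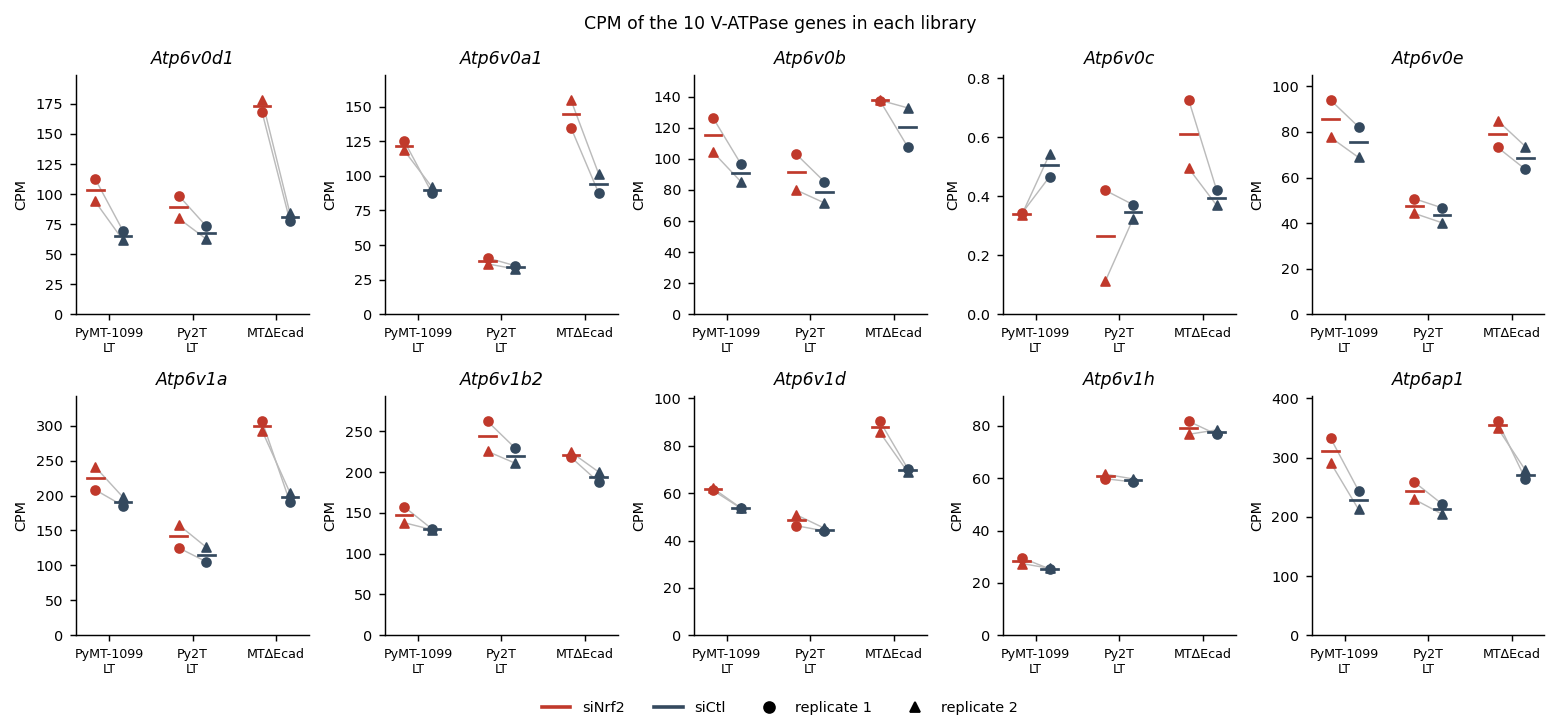
CPM of each of the 10 genes in each library, by line, with siNrf2 in red left of siCtl in blue; bars are group means, and grey lines join the libraries with the same replicate number. In Atp6v0d1 every siNrf2 library lies above both siCtl libraries of its line, and Atp6v0c stays under 1 CPM throughout.

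Atp6v0d1 encodes subunit d of V0, which links the membrane ring to the central stalk. It stood at 168.0 and 178.1 CPM in the siNrf2 libraries of MT∆Ecad, against 77.4 and 83.9 CPM in its siCtl libraries. In PyMT-1099 LT it stood at 112.6 and 93.8 CPM with siNrf2, against 69.4 and 61.6 CPM with siCtl. In Py2T LT the values were 98.7 and 79.7 CPM with siNrf2, against 73.0 and 62.4 CPM with siCtl. The groups did not overlap in any of the 3 lines. The log2 fold change was 1.09 in MT∆Ecad (SE 0.136, 95% interval 0.78 to 1.40, limma adjusted p 0.00151), a 2.13-fold rise. It was 0.65 in PyMT-1099 LT (SE 0.136, adjusted p 0.103) and 0.39 in Py2T LT (SE 0.136, adjusted p 0.682). With the replicate block these last effects passed, with a limma adjusted p of 0.00417 for PyMT-1099 LT and 0.027 for Py2T LT. DESeq2 also called Atp6v0d1 in PyMT-1099 LT. The call in MT∆Ecad was kept in all 12 fits that left out a single library, with log2 fold changes of 1.03 to 1.15. Ordered by level, siNrf2 MT∆Ecad stood apart at the top. The groups siNrf2 PyMT-1099 LT, siNrf2 Py2T LT and siCtl MT∆Ecad followed, each overlapping with its neighbour, and the siCtl groups of Py2T LT and PyMT-1099 LT overlapped at the low end.

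Atp6v0a1 encodes an isoform of subunit a, the V0 protein that forms the proton path and steers the pump to its membrane. Its siNrf2 libraries held 134.7 and 154.7 CPM in MT∆Ecad, against 87.3 and 101.1 CPM in siCtl. In PyMT-1099 LT they held 125.4 and 118.5 CPM, against 87.8 and 91.9 CPM in siCtl. Py2T LT was lower throughout, at 40.7 and 36.4 CPM with siNrf2, against 35.0 and 32.7 CPM with siCtl. The groups did not overlap in any line. The log2 fold change was 0.61 in MT∆Ecad (SE 0.107, limma adjusted p 0.00609), 0.44 in PyMT-1099 LT (adjusted p 0.16, or 0.0108 with the replicate block) and 0.18 in Py2T LT (adjusted p 1). The MT∆Ecad call was lost without siNrf2 replicate 2 of that line (adjusted p 0.062) and without its siCtl replicate 1 (0.0622), and in a fit to its 4 libraries alone.

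Atp6v0b, which encodes a subunit of the proton-carrying ring, stood at 137.6 and 137.8 CPM in siNrf2 MT∆Ecad, against 107.7 and 132.9 CPM in siCtl MT∆Ecad. It stood at 126.5 and 104.4 CPM in siNrf2 PyMT-1099 LT, against 96.9 and 85.4 CPM in siCtl. In Py2T LT it stood at 102.9 and 79.9 CPM with siNrf2, against 85.4 and 71.7 CPM with siCtl. Only in Py2T LT did these groups overlap. The log2 fold changes were 0.20 in MT∆Ecad, 0.33 for PyMT-1099 LT and 0.21 for Py2T LT (SE 0.160 each), and limma called none of them, while the replicate block gave an adjusted p of 0.043 in PyMT-1099 LT. An antisense gene, Gm12841, covers 11.8% of the exons of Atp6v0b, and the sources used here do not say whether counting used the strand. Atp6v0e, a small membrane subunit, held 73.2 and 85.0 CPM with siNrf2 in MT∆Ecad, against 63.6 and 73.6 CPM with siCtl. It held 93.9 and 77.6 CPM with siNrf2 in PyMT-1099 LT, against 82.3 and 68.8 CPM with siCtl, and 50.7 and 44.3 CPM with siNrf2 in Py2T LT, against 46.7 and 40.1 CPM with siCtl. Its groups overlapped in all 3 lines. The Atp6v0e log2 fold changes were 0.20 in MT∆Ecad (limma adjusted p 0.411), 0.18 for PyMT-1099 LT (0.811) and 0.13 for Py2T LT (1). In MT∆Ecad the replicate block gave it an adjusted p of 0.0143.

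Atp6v0c encodes the main subunit of the proton-carrying ring, yet its row held only 4 to 23 reads per library, or 0.11 to 0.73 CPM. The other 9 genes ran from 25.4 to 361.3 CPM. In 7 of the 12 libraries the row held the same number of reads as that of its processed copy Atp6v0c-ps2, and the largest difference was 2 reads. Of the 385 stretches of 81 bases, the read length, in GENCODE's Atp6v0c-ps2, 79.0% also occur in Atp6v0c transcripts. How reads that match both copies were assigned is not given in the sources used here, so the Atp6v0c row is uncertain and no siNrf2 effect is reported for it.

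Atp6v1a encodes the catalytic subunit A of V1, where ATP is split. It stood at 306.2 and 292.6 CPM in siNrf2 MT∆Ecad, against 190.4 and 204.0 CPM in siCtl MT∆Ecad. The values were 208.2 and 241.0 CPM in siNrf2 PyMT-1099 LT, against 185.3 and 197.6 CPM in siCtl. In Py2T LT they were 125.2 and 158.1 CPM with siNrf2, against 105.1 and 125.7 CPM with siCtl. The groups overlapped in Py2T LT and lay apart in the other lines. The log2 fold change was 0.60 in MT∆Ecad (SE 0.131, limma adjusted p 0.0148), 0.23 in PyMT-1099 LT (adjusted p 0.652) and 0.29 in Py2T LT (adjusted p 0.948). The MT∆Ecad call was lost without siNrf2 replicate 1 (adjusted p 0.0753), siNrf2 replicate 2 (0.0808) or siCtl replicate 1 (0.112) of that line.

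Atp6v1d encodes subunit D of the rotating central stalk. Its siNrf2 libraries held 90.3 and 85.6 CPM in MT∆Ecad, against 70.4 and 68.9 CPM in siCtl. They held 61.2 and 62.1 CPM in PyMT-1099 LT, against 53.7 and 53.8 CPM in siCtl, and 46.2 and 50.8 CPM in Py2T LT, against 44.1 and 45.2 CPM in siCtl. The groups lay apart in all 3 lines. The log2 fold change was 0.33 in MT∆Ecad (SE 0.078, limma adjusted p 0.0202), 0.19 in PyMT-1099 LT (adjusted p 0.43) and 0.12 in Py2T LT (adjusted p 1). Leaving out any of the 4 MT∆Ecad libraries raised the adjusted p in that line to between 0.0816 and 0.108.

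Atp6v1b2, the non-catalytic nucleotide-binding subunit B, held 218.0 and 224.4 CPM in siNrf2 MT∆Ecad, against 187.4 and 199.9 CPM in siCtl. It held 157.6 and 137.9 CPM in siNrf2 PyMT-1099 LT, against 130.3 and 129.4 CPM in siCtl, and 262.1 and 225.3 CPM in siNrf2 Py2T LT, against 229.1 and 210.7 CPM in siCtl. Log2 fold changes lay between 0.14 and 0.19 in the 3 lines, and limma called none without the block. The replicate block gave Atp6v1b2 an adjusted p of 0.0324 in MT∆Ecad. Atp6v1h, a regulatory subunit of V1, had the smallest effects of the 9 genes on average. It held 81.8 and 76.8 CPM in siNrf2 MT∆Ecad, against 76.8 and 78.5 CPM in siCtl, groups that overlap, with a log2 fold change of 0.03 (95% interval −0.15 to 0.21). That interval leaves out a change of the size measured for Atp6v0d1 there. In PyMT-1099 LT it held 29.6 and 27.4 CPM with siNrf2, against 25.4 and 25.6 CPM with siCtl, with a log2 fold change of 0.15 (limma adjusted p 0.574). In Py2T LT it held 59.8 and 61.6 CPM with siNrf2, against 58.6 and 59.8 CPM with siCtl, with a log2 fold change of 0.04 (adjusted p 1). The groups lay apart in both PyMT lines, in Py2T LT by less than 0.1 CPM.

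Atp6ap1 encodes an accessory protein that takes part in assembly of V0 and sits in the finished pump. It stood at 361.3 and 349.9 CPM in siNrf2 MT∆Ecad, against 263.5 and 278.5 CPM in siCtl. In PyMT-1099 LT the values were 332.5 and 291.1 CPM with siNrf2, against 244.4 and 212.5 CPM with siCtl. In Py2T LT they were 258.9 and 229.6 CPM with siNrf2, against 221.8 and 204.7 CPM with siCtl. The groups lay apart in all 3 lines. The log2 fold change was 0.39 in MT∆Ecad (SE 0.103, limma adjusted p 0.0311), 0.45 in PyMT-1099 LT (adjusted p 0.138, or 0.00711 with the replicate block) and 0.19 in Py2T LT (adjusted p 1). Without a given MT∆Ecad library the adjusted p in that line lay between 0.08 and 0.191, so its call rests on all 4.

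**Figure D2:**
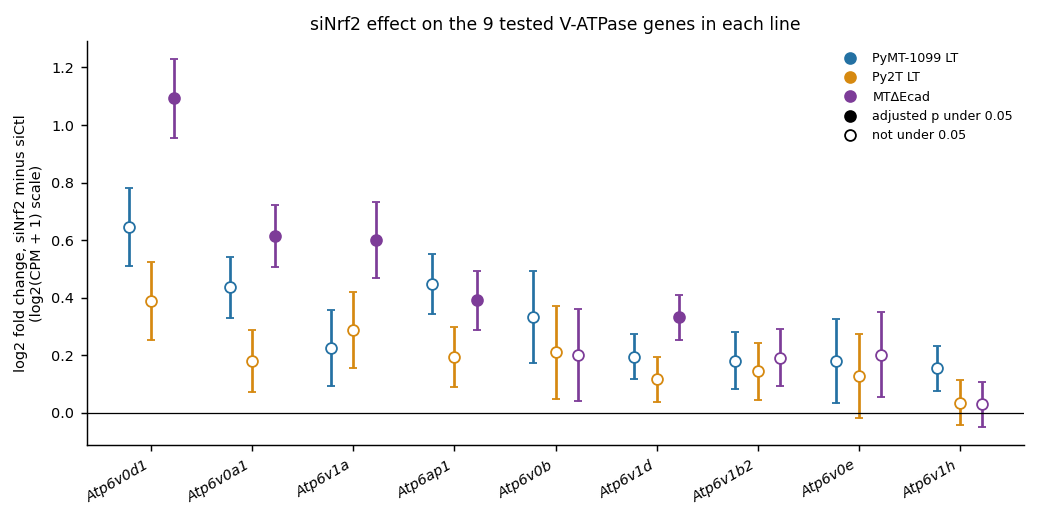
Log2 fold change, siNrf2 minus siCtl, of the 9 tested genes in each line, on the log2(CPM + 1) scale, with bars of 1 SE from the limma fit; filled points have an adjusted p under 0.05. All points are above 0, and the filled ones are 5 of MT∆Ecad, led by Atp6v0d1 at 1.09.

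Averaged over the 3 lines with equal weight, the same 5 genes passed the limma threshold, where 5.99% of all tested genes rose. The average includes the MT∆Ecad libraries in which these genes were already called, so it is not separate support. The mean log2 fold change was 0.71 for Atp6v0d1 (adjusted p 0.00228), 0.41 for Atp6v0a1 (0.00581), 0.37 for Atp6v1a (0.0165), 0.34 for Atp6ap1 (0.00981) and 0.21 for Atp6v1d (0.0187). Atp6v0b, Atp6v1b2, Atp6v0e and Atp6v1h had mean values of 0.25, 0.17, 0.17 and 0.07 that did not pass. With the replicate block 8 of 9 passed, all but Atp6v1h, where 19.0% of all genes rose. Atp6v0d1, Atp6v0a1 and Atp6ap1 were called in all 12 fits that left out a library. Atp6v1a was lost without PyMT-1099 LT siCtl replicate 1 (adjusted p 0.053) or MT∆Ecad siCtl replicate 1 (0.0573), and Atp6v1d in 6 of the 12 fits, with adjusted p up to 0.0565.

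The siNrf2 effect itself was compared between lines with an F test. None of the 9 genes passed in the limma fit without a block, where 2.18% of all genes did, and 1 of 9 had an unadjusted p under 0.05, Atp6v0d1 (0.016, adjusted 0.185). With the replicate block 3 of 9 passed, where 19.0% of all genes did: Atp6v0d1 (adjusted p 0.00438), Atp6v0a1 (0.0242) and Atp6v1a (0.0352). In that fit the effect on Atp6v0d1 was larger in MT∆Ecad than in PyMT-1099 LT by 0.45 log2 units (adjusted p 0.0109) and than in Py2T LT by 0.70 (0.00198), where 7.05% and 13.4% of all genes had a larger effect in MT∆Ecad. For Atp6v1a these differences were 0.37 (0.0269) and 0.31 (0.0348). Atp6v0a1 differed between MT∆Ecad and Py2T LT by 0.43 (0.0104).

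Summed levels of marker genes were higher with siNrf2 in several cases. The 6 leukocyte and macrophage markers summed to 7.51 to 8.42 CPM in siNrf2 MT∆Ecad, against 4.87 to 4.96 CPM in siCtl MT∆Ecad. Their sums were 47.4 to 48.6 CPM in siNrf2 PyMT-1099 LT, against 28.3 to 33.4 CPM in siCtl, and 25.5 to 35.9 CPM in siNrf2 Py2T LT, against 16.5 to 22.1 CPM in siCtl. Of the 6, Ptprc, Adgre1 and Itgam were under 1 CPM in all 6 groups, while Csf1r and Cd68 reached 1 CPM in all 6. Lyz2 reached it in Py2T LT only. The 4 osteoclast markers, of a cell type also rich in the pump, summed to 12.3 to 14.1 CPM in siNrf2 MT∆Ecad, against 6.61 to 8.82 CPM in siCtl. They summed to 7.51 to 8.20 CPM in siNrf2 Py2T LT, against 7.34 to 7.39 CPM in siCtl, and to at most 0.2 CPM in PyMT-1099 LT. Of these markers Acp5 alone reached 1 CPM, and Ctsk, Ocstamp and Dcstamp stayed under it in all 6 groups.

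The 10 mesenchymal markers summed to 16558 to 17474 CPM in siNrf2 MT∆Ecad, against 12070 to 12649 CPM in siCtl. The sums were 11029 to 11625 CPM in siNrf2 PyMT-1099 LT, against 10217 to 10522 CPM in siCtl, and 11709 to 12032 CPM in siNrf2 Py2T LT, against 10823 to 11668 CPM in siCtl. The 10 epithelial markers summed to 1236 to 1246 CPM in siNrf2 MT∆Ecad, against 984 to 1108 CPM in siCtl, where Krt8 and Krt18 alone reached 1 CPM. They summed to 4641 to 5510 CPM in siNrf2 PyMT-1099 LT, against 3884 to 4490 CPM in siCtl, and their sums overlapped between the groups of Py2T LT. The 4 endothelial markers summed to 122 to 124 CPM in siNrf2 PyMT-1099 LT, against 88.0 to 90.7 CPM in siCtl, with Cdh5 alone at 1 CPM or more. Their sums overlapped in Py2T LT and were at most 0.221 CPM in MT∆Ecad. The part of these markers in the pump results was not tested. In these bulk samples, a change in the number of cells of a type and a change in RNA per cell cannot be told apart.

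Among siCtl libraries, the levels of several subunits differed between the lines, as did those of many other genes. Control MT∆Ecad against control PyMT-1099 LT gave 3 of 9 genes higher and 0 lower, where 27.0% of all tested genes were higher and 30.6% lower. In either direction 7199 of the 12502 genes were called, so 3 of 9 is not above the share of all genes. Atp6v1h was the most uneven, at 76.8 and 78.5 CPM in control MT∆Ecad, against 25.4 and 25.6 CPM in control PyMT-1099 LT. Its log2 difference was 1.57 (SE 0.078, limma adjusted p 9.74e-08), followed by Atp6v1b2 at 0.57 (0.000789) and Atp6v1d at 0.37 (0.00284). The exons of Atp6v1h overlap those of Rgs20 on the opposite strand over 1.3% of their length.

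Control MT∆Ecad against control Py2T LT gave 7 of 9 genes higher and 0 lower, where 25.9% of all genes were higher and 28.6% lower. Atp6v0a1 led, at 87.3 and 101.1 CPM in control MT∆Ecad, against 35.0 and 32.7 CPM in control Py2T LT, a log2 difference of 1.45 (SE 0.107, limma adjusted p 2.4e-06). Atp6v1a followed at 0.77 (0.000804), Atp6v0e at 0.65 (0.00451), Atp6v1d at 0.63 (9.94e-05) and Atp6v0b at 0.61 (0.0101). The smaller differences were 0.39 for Atp6v1h (0.00238) and 0.35 for Atp6ap1 (0.0184). The calls of Atp6v0b and Atp6ap1 were lost without Py2T LT siCtl replicate 2 (adjusted p 0.0743 and 0.106) or MT∆Ecad siCtl replicate 2 (0.086 and 0.102).

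Control Py2T LT against control PyMT-1099 LT gave 2 of 9 genes higher and 4 lower, where 28.1% and 27.5% of all genes were. In either direction 6 of 9 were called, near the share of all genes (6949 of 12502). Atp6v1h was higher by 1.18 log2 units (limma adjusted p 9.31e-07), at 58.6 and 59.8 CPM in control Py2T LT, against 25.4 and 25.6 CPM in control PyMT-1099 LT. Atp6v1b2 was higher by 0.75 (0.000134). Lower in Py2T LT were Atp6v0a1 with a log2 difference of −1.38 (2.96e-06), Atp6v0e with −0.78 (0.00143), Atp6v1a with −0.73 (0.00108) and Atp6v1d with −0.26 (0.0178). The Atp6v1d call was lost without any of the 4 control libraries compared, with adjusted p of 0.0529 to 0.0885. These 3 comparisons share control libraries. Atp6v0d1 was called in none of them, with log2 differences of 0.30, 0.25 and 0.05 in the order given.

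Per kilobase of exon, the level of Atp6ap1 was the highest of the 10 genes in every group, from 70.5 CPM per kilobase in siCtl Py2T LT to 117.5 in siNrf2 MT∆Ecad. Atp6v0d1 stood at 96.5 in siNrf2 MT∆Ecad, against 45.0 in siCtl MT∆Ecad, and at 57.6 in siNrf2 PyMT-1099 LT, against 36.5 in siCtl. In MT∆Ecad with siNrf2 it exceeded Atp6v0b, at 67.1, while with siCtl it was below Atp6v0b, at 58.6. Atp6v1h, whose annotated exons are the longest at 9.746 kilobases, was the lowest of the 9 tested genes in PyMT-1099 LT and MT∆Ecad, and in Py2T LT Atp6v0a1 was lower. These levels divide by all annotated exons of GENCODE M21, and transcripts in use may be shorter.

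The lines also differed in which genes supply subunit a. Atp6v0a4, an isoform known from kidney and inner ear, held 74.6 and 71.8 CPM in siNrf2 PyMT-1099 LT, against 65.4 and 66.2 CPM in siCtl PyMT-1099 LT. It held between 0.71 and 2.44 CPM in the 8 libraries of the other lines. Its log2 difference was −4.38 in control MT∆Ecad against control PyMT-1099 LT (limma adjusted p 1.83e-08) and −4.92 in control Py2T LT against control PyMT-1099 LT (9.42e-09). A neighbour, D630045J12Rik, shares 5.21% of the Atp6v0a4 exons on the same strand. In CPM per kilobase summed over Atp6v0a1, Atp6v0a2, Tcirg1 and Atp6v0a4, the share of Atp6v0a4 was 22.1% in siNrf2 PyMT-1099 LT and 22.8% in siCtl PyMT-1099 LT, and under 1% in the group means of the other lines. Atp6v0a1 made up 36.6% ± 1.27 in siNrf2 MT∆Ecad, against 31.7% ± 0.331 in siCtl (SD, n = 2). Its share was 27.9% ± 1.04 in siNrf2 PyMT-1099 LT, against 23.6% ± 0.325 in siCtl, and 12.8% ± 0.39 in siNrf2 Py2T LT, against 11.6% ± 0.483 in siCtl. In each line the siNrf2 libraries had the larger Atp6v0a1 share, and no test was run on these shares.

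**Figure D3:**
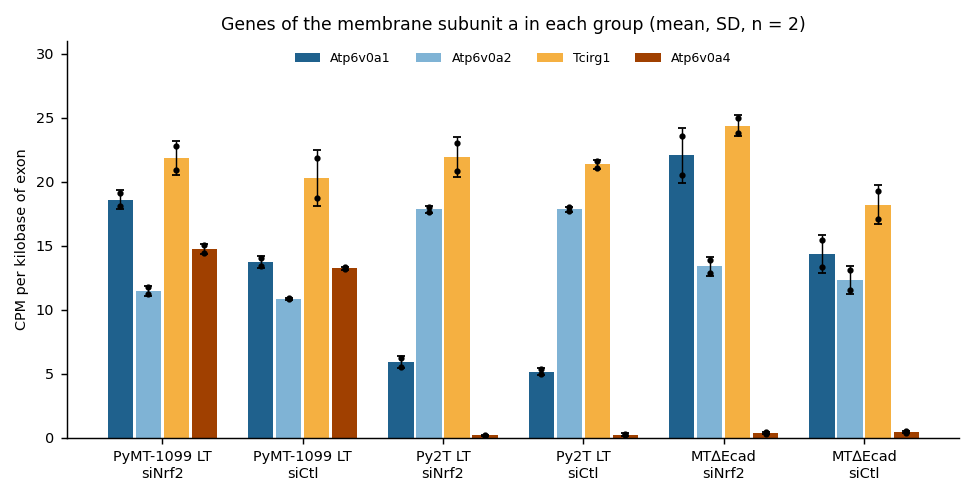
CPM per kilobase of annotated exon for the 4 genes of subunit a in each group, siNrf2 left of siCtl for each line; bars are means with SD (n = 2) and dots are libraries. Atp6v0a4 appears in PyMT-1099 LT and is near 0 elsewhere, and Atp6v0a1 is lowest in Py2T LT.

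Of 15 further subunit and accessory genes of the pump, 10 were tested. In MT∆Ecad 2 of the 10 rose and 0 fell, where 8.89% of all genes rose and 8.42% fell: Atp6v1f, subunit F of the stalk, with a log2 fold change of 0.43 (limma adjusted p 0.0231), and Tcirg1, the subunit a isoform that osteoclasts need, with 0.42 (0.0245). On average over the lines 3 of the 10 rose, where 5.99% of all genes did, Atp6v1g1 by 0.29 (adjusted p 0.024), Atp6v1f by 0.27 (0.0249) and Atp6v1e1 by 0.24 (0.0406). Subunits G and E, encoded by Atp6v1g1 and Atp6v1e1, form the outer stalks. The median of the 10 was 0.06 both in MT∆Ecad and on average. Atp6ap2, the accessory protein known as the prorenin receptor, held 96.1 and 97.1 CPM in siNrf2 MT∆Ecad, against 113.7 and 118.3 CPM in siCtl, with a log2 fold change of −0.26 (adjusted p 0.557). Atp6v1c1 had a log2 fold change of −0.02 there (0.953). The isoform genes Atp6v0d2, Atp6v1b1, Atp6v1c2, Atp6v1e2 and Atp6v1g3 averaged under 0.1 CPM per kilobase in every group. Osteoclast, kidney and testis are among the tissues known to use them.

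Other lysosome genes were taken from lists of textbook members, which were also chosen with earlier results of these data known. The counts of these lists are therefore descriptive. Of 26 tested lysosomal hydrolases and membrane proteins, 17 rose and 1 fell in MT∆Ecad (limma), with a median log2 fold change of 0.43. The shares of all tested genes to set beside this count and those of the next lists are 8.89% higher and 8.42% lower. The gene that fell was Ctsl, a cathepsin, at −0.33 (adjusted p 0.0429), and Scarb2, the receptor that carries glucocerebrosidase to lysosomes, rose by 0.97 (0.00119). Of 10 tested lysosomal ion channel and exchanger genes, 5 rose and 0 fell, with a median of 0.46. They included Tmem175, a channel of the lysosomal membrane, at 0.93 (0.0104), Ostm1, the partner of the chloride exchanger gene Clcn7, at 0.77 (0.00996), and Mcoln1, a calcium channel, at 0.47 (0.015). Of 18 tested genes of mTORC1 docking and TFEB control, 3 rose and 0 fell, namely Lamtor4 at 0.52 (0.0232), Flcn at 0.39 (0.0219) and Mtor at 0.39 (0.0133). The transcription factor genes Tfeb, Tfe3 and Mitf had log2 fold changes of 0.08, −0.19 and −0.24 in MT∆Ecad, with adjusted p of 0.886, 0.264 and 0.507. Of 11 tested assembly factors and regulators 1 rose, a count near the share of all genes. It was Wdr7, a component of the pump's regulator Rabconnectin, at 0.49 (0.0396).

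**Figure D4:**
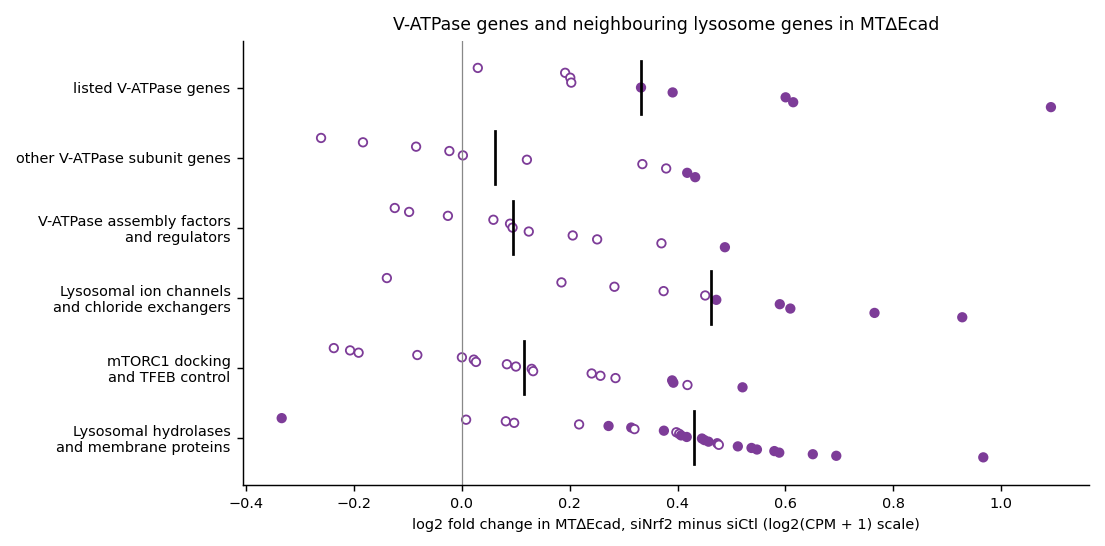
Log2 fold change in MT∆Ecad, siNrf2 minus siCtl, of every tested gene in the pump list and in the other lists, 1 point per gene; filled points have a limma adjusted p under 0.05 and black bars are list medians. The listed pump genes have a median of 0.33, against 0.46 for ion channels and 0.43 for hydrolases.

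On average over the lines, 17 of 26 hydrolases rose and 0 fell, where 5.99% of all genes rose and 6.26% fell, with a median of 0.28, close to the 0.25 of the 9 pump genes. Channels gave 5 of 10, with a median of 0.27, mTORC1 and TFEB control 3 of 18, with 0.07, and assembly factors 0 of 11, with 0.06. All tested genes had a median of −0.01. The assembly count of 0 comes from limma, and 2 of the 11 had an unadjusted p under 0.05. Of all 12502 tested genes 3585 did, so the 2 of 11 do not exceed that share.

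Likeness of pattern was measured as the root mean square difference of log2(CPM + 1), centred on each gene's mean, over the 12 libraries and 9075 genes with a mean of at least 10 CPM. Nearest to Atp6v0d1 were Adamtsl4 (0.116), Pbxip1 (0.156), H2-T10 (0.172), Pld3 (0.179) and AU040320 (0.19). Atp6ap1, at 0.255, was the nearest pump gene, and Atp6v1h, at 0.641, the farthest. Nearest to the mean pattern of the tested pump genes were Ndst1 (0.0522), Yif1a (0.0693), Ctsd (0.0727), Stat3 (0.0822) and Mtfr1l (0.0829). Ctsd encodes the lysosomal protease cathepsin D. All 12 points share lines and libraries, so these distances describe the data and carry no test.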

How the data were processed

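The values deposited by the authors are CPM, reads per 1000000 reads of a library, and cover 24454 Entrez IDs and 12 libraries. Per the labels' protocols, 200 ng of total RNA was depleted of ribosomal RNA, made into stranded libraries and read as single 81 nt reads. The submitters' processing notes name STAR and the mm10 build; the counting tool, annotation and strand setting are not given in the sources used here. RefSeq tables gave symbols to 24374 IDs and GENCODE M21 to 7 more. All CPM values were whole multiples of 1 read within 0.01 of a read, so whole reads were recovered (100%) for edgeR 4.0.16 and DESeq2 1.42.0, which were alternatives. A gene with 0 reads had at most 0.1107 CPM, taking 3 reads as the limit, for counting error only.

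Genes with at least 1 CPM in at least 2 libraries (12502) were fitted as log2(CPM + 1), which understates changes of low genes, with limma 3.58.1 in R 4.3.3, with 6 group means, a mean trend, 6 residual degrees of freedom and two-sided tests. P-values were Benjamini-Hochberg adjusted over these genes, with a threshold of 0.05. They measure the spread between these samples, whose separate cultures the labels do not describe. Replicate numbers were taken to pair siNrf2 and siCtl libraries of a line, a pairing inferred from these same data. Deviations of same-numbered libraries from their group means correlated at 0.846 in Py2T LT, 0.778 in PyMT-1099 LT and 0.625 in MT∆Ecad. The fit with the replicate block within lines had 3 residual degrees of freedom. The members and lists were chosen with earlier results of these data known. Named genes are the 10 members, members of the other lists that passed on average or between lines (up to 6 per list), subunit isoforms, and the 5 genes nearest in pattern; those named for MT∆Ecad alone, and Tfeb, Tfe3 and Mitf, were chosen after their values were seen. Fits were also run on simulated counts, which were drawn without an effect of the replicate number. These cannot decide between the fits with and without the block.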

Additional observations from a re-analysis of the deposited data

Results flagged for a closer look

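For 3 pump genes the siNrf2 effect differed between the 3 lines in the limma F test with the replicate block, with adjusted p of 0.00438 for Atp6v0d1, 0.0242 for Atp6v0a1 and 0.0352 for Atp6v1a. The log2 fold changes of Atp6v0d1 were 1.09 in MT∆Ecad, 0.65 for PyMT-1099 LT and 0.39 for Py2T LT. Those of Atp6v0a1 were 0.61, 0.44 and 0.18, and those of Atp6v1a 0.60, 0.23 and 0.29, in the same order of lines. In this fit 19.0% of all tested genes differed between lines. Without the block none of the 3 passed, with adjusted p of 0.185, 0.341 and 0.574.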

How the results depend on the processing

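Pump genes called: the replicate block moved the count to 4 for PyMT-1099 LT, 1 for Py2T LT and 8 on average. It gave 3 for the difference between lines. For control MT∆Ecad against control PyMT-1099 LT the block gave 5 of 9 higher and 0 lower. There 3651 of all 12502 genes were higher and 4157 lower. In either direction 7808 were called, so 5 of 9 is not above that share. DESeq2 gave 1 of 9 for PyMT-1099 LT, with 86 genes called in all. The pseudocount of 0.1, both filters, TMM scaling, edgeR and the 4-library fits kept every count of pump genes within 1.5 times. Leaving out single libraries gave 1 to 5 in MT∆Ecad, 3 to 7 on average, 3 to 4, 5 to 7 and 5 to 6 in the control comparisons as ordered in the text, and 0 in the other tests. In MT∆Ecad the counts were 2 and 1 without siNrf2 replicate 1 and 2, and 1 and 3 without siCtl replicate 1 and 2.

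Genes called in all: in PyMT-1099 LT 65, against 18 with the pseudocount of 0.1, 125 without a filter, 36 with a filter at 5 CPM, 13 in edgeR, 1125 with the replicate block and 0 in the 4-library fit. In Py2T LT 19, against 8, 30, 12, 6, 127 and 0 in the same order and 33 in DESeq2. In MT∆Ecad 2164, against 5324 with the block and 1116 in the 4-library fit. On average 1532, against 856 in edgeR and 4997 with the block. Between lines 273, against 58 with the pseudocount of 0.1, 20 in edgeR and 2377 with the block. Leaving out libraries gave 7 to 67 in PyMT-1099 LT, 5 to 11 in Py2T LT, 576 to 2664 in MT∆Ecad, 660 to 2126 on average and 29 to 189 between lines. In the control comparisons it gave 6023 to 7639, 5515 to 7287 and 5769 to 7535.

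Across settings other than leaving out libraries, 577 values of single pump genes kept direction and call, 22 gained a call and 1 lost it. Among the siNrf2 effects of single lines, their average and the control comparisons, signs of pump genes turned on leaving out libraries in 5 cases: Atp6v1h in MT∆Ecad (−0.0151 to 0.0741), Atp6v0a1 (−0.0412 to 0.168) and Atp6v1a (−0.0068 to 0.0917) in control MT∆Ecad against control PyMT-1099 LT, and Atp6v0d1 (−0.0656 to 0.158) and Atp6ap1 (−0.197 to 0.00342) in control Py2T LT against control PyMT-1099 LT. Differences of the siNrf2 effect between lines, fitted without the block and not called, also turned sign for Atp6v0b, Atp6v0e, Atp6v1a, Atp6v1b2, Atp6v1h and Atp6ap1. The cause was not tested. A group left with 1 library is assumed to vary like the others. Across lines same-numbered control libraries correlated at −0.114 for MT∆Ecad with PyMT-1099 LT, −0.291 for MT∆Ecad with Py2T LT and 0.592 for Py2T LT with PyMT-1099 LT. As these did not all exceed 0.1, the numbers were not taken to pair control libraries, and the block count for control libraries is given for completeness.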
